A study of Mus musculus with 9 samples.

Results

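The genes described here are the 91 mouse protein-coding genes whose symbol is Zfp followed by digits alone and that lie on chromosome 1, 3, 5, 6, 11, 14, 15, 16, 18 or 19, out of 35498 genes measured. They were chosen by name and chromosome in GENCODE M21 (GRCm38) and by no expression value, but the 364 Zfp genes of the genome were divided by chromosome with earlier results of these data known. Counts over the set are therefore descriptions. Only single genes were tested, with p-values adjusted over all 15773 genes that passed the filter on low counts.

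The 9 bulk RNA libraries came from the whole cortical tissue of C57Bl/6 embryos at E13.5, with 3 libraries in each of 3 genotype groups. The DKO group was Smarca1 -/- with 1 Cre allele (Cre +/-), and the series' text names it the double knockout of Smarca5 and Smarca1. The Smarca1 KO group was Smarca1 -/- without Cre (Cre -/-), and the WT group was Smarca1 +/+ without Cre (Cre -/-). Not given in the sources used here are the Cre driver and the cells it acts in, the deleted exons, and which Smarca5 alleles the Smarca1 KO and WT groups carry. Smarca5 (SNF2H) and Smarca1 (SNF2L) are the ATPases of the ISWI family, enzymes that slide and space nucleosomes. DKO against Smarca1 KO addresses the loss of Smarca5 when Smarca1 is already deleted, DKO against WT the loss of both, and Smarca1 KO against WT the loss of Smarca1 alone. These comparisons share libraries, since each group stands in 2 of them. The Cre allele also differs in both DKO comparisons, and its part cannot be told apart from that of Smarca5. No label says that a group's libraries are separate embryos. The p-values therefore measure the spread of these samples only, and that spread may be technical.

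Zfp genes encode proteins with C2H2 zinc fingers, small folds held by a zinc ion that usually read DNA, a few bases per finger, in tandem arrays. In mammals the largest class also carries a KRAB box at the N terminus. The KRAB box binds Trim28 (KAP1), which brings the histone methyltransferase Setdb1, heterochromatin proteins and deacetylases to the bound site, often in a transposable element, and silences it. Zfp proteins without KRAB include activators, RNA-binding proteins and mitotic factors, and many of them are older and more alike between species than the KRAB class.

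Library depth was 27466046 to 46007527 estimated counts. Smarca5 had 84.4, 79.2 and 77.2 CPM (counts scaled to a common library size) in DKO libraries, against 245.8, 243.1 and 212.2 CPM in the Smarca1 KO and 267.4, 270.7 and 262.0 CPM in WT libraries. Its log2 fold change was -1.54 in DKO against Smarca1 KO (SE 0.061, edgeR adjusted p = 2.99e-06). Smarca1 itself had 37.9, 38.8 and 38.4 CPM in DKO libraries, 42.3, 35.3 and 43.8 CPM in Smarca1 KO libraries and 37.8, 36.4 and 37.3 CPM in WT libraries. With the deleted exons not given, its total count does not check the labels. The dorsal telencephalon markers Emx1, Emx2, Lhx2 and Pax6 were all detected, and summed to 497.3 to 576.5 CPM in DKO, 499.8 to 626.7 CPM in Smarca1 KO and 719.5 to 758.6 CPM in WT libraries. The 6 markers of intermediate progenitors summed to 508.1 to 537.8 CPM in DKO, 519.0 to 648.4 CPM in Smarca1 KO and 650.6 to 681.3 CPM in WT libraries, and the 7 of ventral interneurons to 881.9 to 1076.0 CPM in DKO, 829.7 to 898.3 CPM in Smarca1 KO and 750.3 to 860.0 CPM in WT libraries. The 7 neuron markers summed to 4611.3 to 5314.1 CPM in DKO and 4526.9 to 5619.0 CPM in Smarca1 KO libraries. In WT libraries they summed to 4332.4 to 4649.0 CPM. The 7 of radial glia summed to 2039.9 to 2254.3 CPM in DKO and 1907.9 to 2131.5 CPM in Smarca1 KO libraries. In WT libraries their sum was 2198.5 to 2253.1 CPM. For the 7 blood markers and the 7 of endothelium and mural cells, the sums of the 3 groups overlapped. The 7 microglia markers summed to 47.2 to 58.5 CPM in DKO, 35.8 to 42.2 CPM in Smarca1 KO and 34.7 to 37.0 CPM in WT libraries. The 7 markers of meninges and mesenchyme set 2 libraries apart, with 643.5 CPM in DKO replicate 1 and 589.7 CPM in Smarca1 KO replicate 1, against 239.1 to 266.2 CPM in the other DKO and Smarca1 KO libraries and 421.1 to 510.0 CPM in WT libraries. No marker of these lists was at 0 in all libraries. The part of these markers in the values below was not tested, and the counts without both libraries are given.

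Of the 91 members, 85 passed the filter on low counts and had a count in every library. The 6 that did not were Zfp750, with at most 5 counts in a library, Zfp474, also at most 5, Zfp648, at most 4, Zfp957, with 1 count in WT replicate 3 only, and Zfp616 and Zfp735, with 0 counts in all 9 libraries. All 6 lay near the limit that a count of 0 allows, 3 counts per library, so no fold change is given for them. The median level over the 91 members was 24.8 TPM (a per-length scale within a library), 74 members were over 10 TPM and 7 were under 1 TPM. The median of the members tested was 26.7 TPM, beside 19.4 TPM over all genes tested.

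The 8 highest members were Zfp207 at 244.3 TPM, Zfp219 at 180.9 TPM, Zfp706 at 173.6 TPM, Zfp740 at 168.5 TPM, Zfp422 at 135.4 TPM, Zfp664 at 117.9 TPM, Zfp638 at 115.3 TPM and Zfp532 at 104.8 TPM (means of 9 libraries). None of them had a KRAB match. Zfp207 (BuGZ) binds Bub3 and microtubules at the mitotic spindle, Zfp219 acts with Sox9 in mouse cartilage cells, and Zfp638 is a nuclear RNA- and DNA-binding protein that in human cells acts with the HUSH silencing complex. Zfp207, the highest, had 313.4, 305.2 and 304.3 CPM in DKO libraries, 322.9, 329.3 and 307.3 CPM in Smarca1 KO libraries and 327.4, 326.1 and 320.7 CPM in WT libraries. The DKO values of Zfp207 lay below all WT values and overlapped the Smarca1 KO values, and neither difference passed the test (log2 fold change -0.056 in DKO against Smarca1 KO, adjusted p = 0.484, and -0.078 in DKO against WT, adjusted p = 0.191). Of the 8, only Zfp219, Zfp740 and Zfp422 were called in any comparison.

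**Figure D1:**
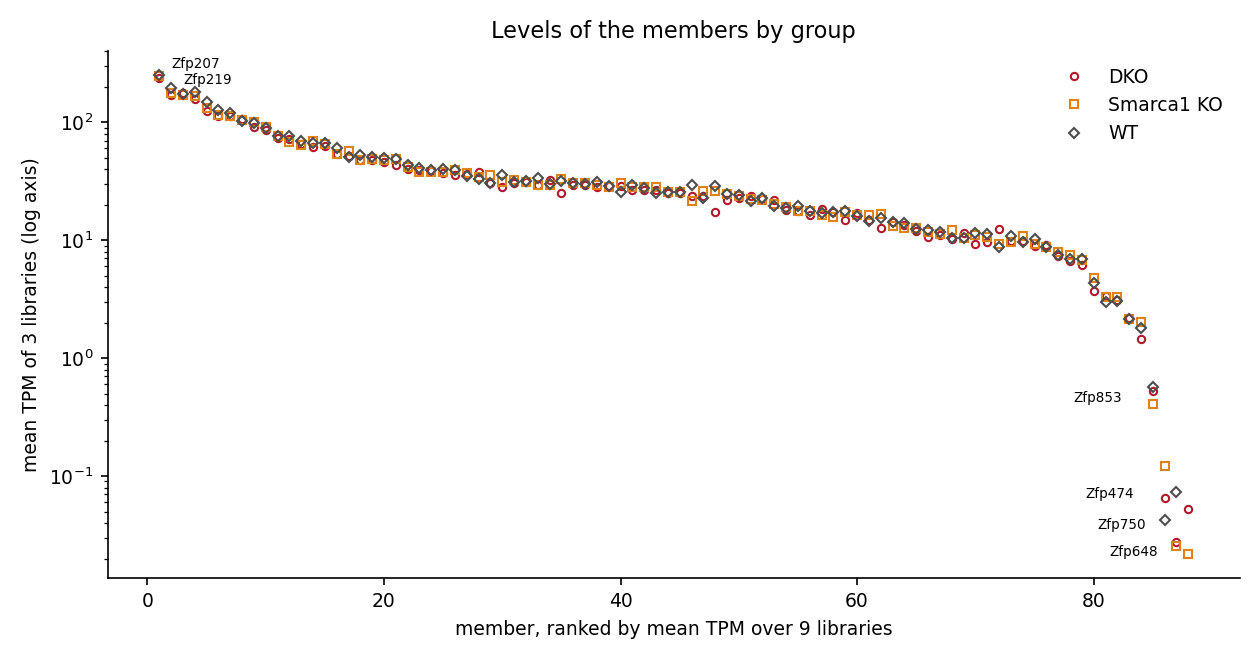
Mean TPM of 3 libraries (log axis) for the members, ranked by their mean over 9 libraries, in DKO (circles), Smarca1 KO (squares) and WT (diamonds). The 3 members at or near 0 in every library are not drawn, and a group mean of 0 has no symbol. The levels of the 3 groups lie close together over most of the ranking, which runs from 244.3 TPM for Zfp207 to under 1 TPM.

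A KRAB A box, the part of KRAB that binds Trim28, was sought by profile search in the reading frames of a gene's coding transcripts. A match in at least 1 transcript was found for 32 members, of which 30 were tested. The match need not lie in the main transcript. The other 59 members, 55 of them tested, had none. Over all 364 Zfp genes of the genome 226 had a match, so KRAB genes made up 35.16% of the members and 62.09% of all Zfp genes. The KRAB members had a median level of 17 TPM and a median of 10.5 finger matches, and the members without KRAB had 28.4 TPM and 7 finger matches. At least 1 finger match was found in 87 members, with 37 in Zfp142 as the highest number. The 4 members with none by the strict spacing used were Zfp474, Zfp503, Zfp750 and Zfp957. Zfp503 (Nolz1), a regulator of striatal development, is known for a single atypical finger.

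Summed over all 91 members, the level was 5462.8, 5487.8 and 5535.1 CPM in DKO libraries, 5641.3, 5749.9 and 5628.3 CPM in Smarca1 KO libraries and 5880.2, 5827.8 and 5800.4 CPM in WT libraries. The 3 groups did not overlap, with DKO lowest and WT highest. Abundant members weigh most in such a sum. In Smarca1 KO against WT the members' median log2 fold change was -0.001, with 43 of 85 values below 0. The members without KRAB had the same order, with 4440.3, 4436.6 and 4442.5 CPM in DKO libraries, 4569.4, 4637.1 and 4507.1 CPM in Smarca1 KO libraries and 4795.2, 4733.8 and 4728.5 CPM in WT libraries. The KRAB members summed to 1022.6, 1051.1 and 1092.6 CPM in DKO libraries, 1071.9, 1112.8 and 1121.2 CPM in Smarca1 KO libraries and 1085.0, 1093.9 and 1071.9 CPM in WT libraries, where the groups overlapped. In bulk tissue, fewer cells of a type and less RNA per cell cannot be told apart.

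In DKO against Smarca1 KO, 1 member was higher, 4 were lower and 80 were not called (edgeR quasi-likelihood test, Benjamini-Hochberg adjusted p under 0.05), which is 5.88% of the 85 tested, beside 4.39% of all genes tested (1.73% called higher and 2.66% called lower). Zfp239, Zfp950, Zfp7 and Zfp644 were lower and Zfp9 was higher. The median log2 fold change of the members was -0.057, beside 0.004 over all genes tested, and 62 of 85 values were below 0. At an unadjusted p under 0.05 there were 16 lower and 3 higher members, beside 1510 lower and 1395 higher over all genes tested. DESeq2 called 1 member higher and 4 lower, beside 6.96% of all genes with a DESeq2 adjusted p (2.9% called higher and 4.06% called lower). The 252 other Zfp genes tested had 1 higher and 44 lower, or 17.9%, with a median of -0.108. The count of 5 depended on single libraries. It was 3 without Smarca1 KO replicate 1, 2 without Smarca1 KO replicate 2, 1 without DKO replicate 1, 1 without DKO replicate 2, 3 without DKO replicate 3, and 2 without any 1 of the WT libraries, which enter through the shared estimate of spread. The fit of the 2 compared groups alone called 1. The number of all genes called, 692 of 15773, moved too. It was 286 to 795 over the fits without 1 library and 181 with the 2 compared groups alone. With the summed level of 4 Y-linked genes (Ddx3y, Uty, Eif2s3y and Kdm5d) as a covariate edgeR called 0 members (9 at an unadjusted p under 0.05) and 8 of all genes, and likewise 0 members in DKO against WT (10 at an unadjusted p under 0.05) and 4 of all genes. That level was 238.5 to 247.0 CPM in DKO, 253.2 to 267.5 CPM in Smarca1 KO and 257.9 to 265.8 CPM in WT libraries, so covariate and genotype cannot be told apart there. Zfp239 was among the called members in each of the fits without 1 library, and it was the 1 member called without both DKO replicate 1 and Smarca1 KO replicate 1.

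Zfp239 (Mok2, ENSMUSG00000042097.17, chr6:117862100-117873291, plus strand) encodes a protein that binds DNA and RNA through its fingers. It had 17.8, 17.3 and 18.6 CPM in DKO libraries, compared with 26.7, 31.5 and 27.8 CPM in Smarca1 KO libraries and 30.8, 31.6 and 27.7 CPM in WT libraries. All DKO values lay below all others, and the Smarca1 KO and WT values overlapped. The log2 fold change was -0.68 in DKO against Smarca1 KO (SE 0.079, edgeR adjusted p = 0.00274) and -0.74 in DKO against WT (SE 0.078, edgeR adjusted p = 0.00132), the largest fall of any called member in both. In Smarca1 KO against WT it was -0.068 (SE 0.077, edgeR adjusted p = 0.669). Both main transcripts of Zfp239 followed this order. ENSMUST00000172088 averaged 9.39 ± 0.283 TPM in DKO, 15.3 ± 1.11 TPM in Smarca1 KO and 15.7 ± 0.883 TPM in WT libraries (SD, n = 3 each). ENSMUST00000150936 averaged 4.66 ± 0.426 TPM in DKO, 9.57 ± 0.834 TPM in Smarca1 KO and 11.2 ± 1.33 TPM in WT libraries (SD, n = 3 each). Of its 31-base words 0.0% were found in transcripts of another gene, so its count has little room for reads of a relative.

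Zfp950 (ENSMUSG00000074733.14, chr19:61053840-61140840, minus strand) has a KRAB match and 17 finger matches. Its level was 30.6, 28.3 and 34.4 CPM in DKO libraries and 40.2, 40.6 and 37.8 CPM in Smarca1 KO libraries, with 41.3, 41.2 and 39.6 CPM in WT libraries. The DKO values were again below all others, with a log2 fold change of -0.34 in DKO against Smarca1 KO (SE 0.070, edgeR adjusted p = 0.0261) and -0.39 in DKO against WT (SE 0.070, edgeR adjusted p = 0.0114). Zfp644 (ENSMUSG00000049606.16, chr5:106616739-106697287, minus strand) encodes a partner of the G9a and GLP histone methyltransferases. It had 83.1, 82.3 and 83.0 CPM in DKO libraries and 92.1, 91.9 and 94.5 CPM in Smarca1 KO libraries, with 93.7, 90.9 and 90.3 CPM in WT libraries. The DKO values of Zfp644 lay below all others while Smarca1 KO and WT overlapped, and the differences were small, at -0.16 in DKO against Smarca1 KO (SE 0.034, edgeR adjusted p = 0.0296) and -0.15 in DKO against WT (SE 0.034, edgeR adjusted p = 0.0266). Leaving out any 1 library except Smarca1 KO replicate 3 ended the call of Zfp644 in DKO against Smarca1 KO (adjusted p up to 0.104), and the call of Zfp950 there survived only the removal of Smarca1 KO replicate 3 or DKO replicate 3. In DKO against WT the call of Zfp644 was lost without any 1 of DKO replicates 2 and 3 and the 3 WT libraries (adjusted p up to 0.105), and that of Zfp950 without WT replicate 1 (adjusted p = 0.0517).

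Zfp7 (ENSMUSG00000033669.8, chr15:76879259-76892395, plus strand) has a KRAB match and 16 finger matches. It had 21.5, 22.6 and 23.2 CPM in DKO libraries and 26.9, 27.3 and 29.7 CPM in Smarca1 KO libraries, with 25.5, 25.7 and 24.6 CPM in WT libraries. The WT values of Zfp7 lay between those of DKO and Smarca1 KO without overlap. Its log2 fold change was -0.32 in DKO against Smarca1 KO (SE 0.059, edgeR adjusted p = 0.019) and -0.17 in DKO against WT (SE 0.059, edgeR adjusted p = 0.0888), with 0.15 in Smarca1 KO against WT (edgeR adjusted p = 0.233). Without any 1 of the DKO libraries the call was lost, with adjusted p up to 0.0615. Zfp7 is less certain than the others, since 20.5% of its 31-base words occur in transcripts of other genes and 14.2% of its exon bases overlap Gm49527 on the same strand.

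Zfp9 (ENSMUSG00000072623.6, chr6:118461950-118479320, minus strand), with a KRAB match and 12 finger matches, was the only member called higher in DKO by the edgeR fit of all 9 libraries. It had 23.7, 25.8 and 25.3 CPM in DKO libraries and 18, 17.4 and 21.9 CPM in Smarca1 KO libraries, with 18.1, 18.1 and 17.1 CPM in WT libraries. All DKO values lay above all others, with Smarca1 KO replicate 3 the closest. The log2 fold change was 0.39 in DKO against Smarca1 KO (SE 0.088, edgeR adjusted p = 0.041) and 0.49 in DKO against WT (SE 0.088, edgeR adjusted p = 0.0112). In DKO against Smarca1 KO this call survived only the removal of Smarca1 KO replicate 3, and in DKO against WT it was lost without WT replicate 3 (adjusted p = 0.057). Its main transcript, ENSMUST00000161170, averaged 11.9 ± 0.527 TPM in DKO, 9.14 ± 1.4 TPM in Smarca1 KO and 8.59 ± 0.372 TPM in WT libraries (SD, n = 3 each).

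**Figure D2:**
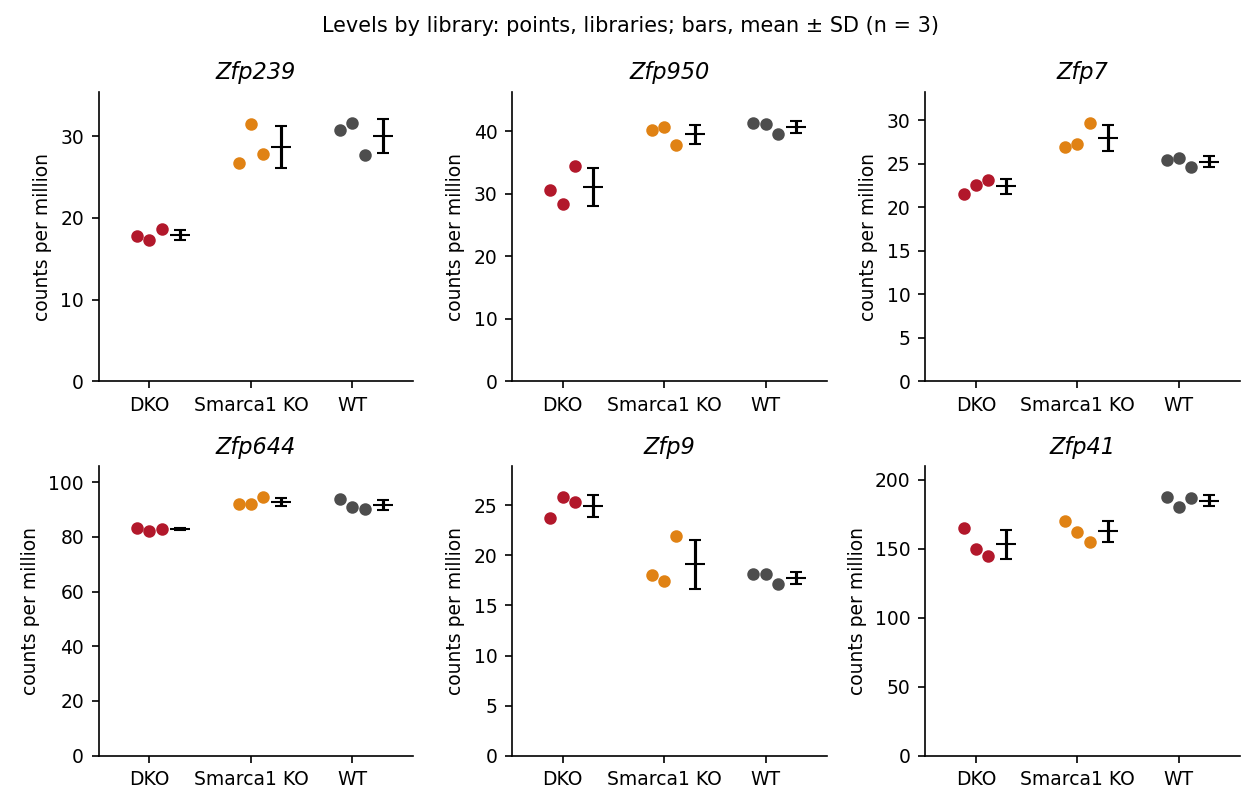
CPM in each library of the 5 members called in DKO against Smarca1 KO and of Zfp41, from left to right DKO, Smarca1 KO and WT, with points for libraries and bars for the mean ± SD of 3. Zfp239 sits at 17.3 to 18.6 CPM in DKO libraries, against 26.7 to 31.6 CPM in all others, and Zfp9 is the 1 panel with DKO on top.

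The uncalled members with the smallest p in DKO against Smarca1 KO were Zfp867 (log2 fold change -0.26, adjusted p = 0.0959), Zfp637 (-0.17, adjusted p = 0.115) and Zfp932 (-0.25, adjusted p = 0.126). Zfp932 shares 48.1% of its 31-base words with other genes, so reads of its relatives may be counted in it. Among the 30 KRAB members tested 2 were lower and 1 was higher, with a median of -0.063. Among the 55 without KRAB 2 were lower and 0 higher, with a median of -0.057. The medians were close, but the counts at an unadjusted p under 0.05 by edgeR were not. There, 10 of the 30 KRAB members were lower and 1 was higher. Of the 55 without KRAB, 6 were lower and 2 higher at that p, beside 1510 lower and 1395 higher of all 15773 genes tested. Whether the KRAB members differed from those without KRAB was not tested. At low levels the errors were wide: Zfp951 (4.30 TPM) had a log2 fold change of -0.51 with an SE of 0.18 (adjusted p = 0.159), and Zfp879 (1.75 TPM) had -0.48 with an SE of 0.18 (adjusted p = 0.195). Of these, Zfp951 and Zfp879 were named after their values were seen.

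In DKO against WT, 1 member was higher, 14 were lower and 70 were not called, which is 17.6% of the 85 tested, beside 12% of all genes tested (5.61% called higher and 6.35% called lower). The median log2 fold change was -0.069, beside 0.008 over all genes tested, and 64 of 85 values were below 0. At an unadjusted p under 0.05 there were 25 lower and 3 higher members, beside 2350 lower and 2540 higher over all genes tested. DESeq2 called 2 members higher and 15 lower, beside 18.3% of all genes with a DESeq2 adjusted p (8.71% called higher and 9.6% called lower). Zfp239, Zfp950, Zfp644 and Zfp9, described above, were 4 of the 15 called. The other 11 were all lower, by 0.16 to 0.28 on the log2 scale, and 9 of them had no KRAB match. The KRAB members had 3 lower and 1 higher of 30 tested, and the members without KRAB had 11 lower and 0 higher of 55 tested. The 252 other Zfp genes tested had 50 lower and 4 higher, or 21.4%. The count of 15 was 3 without DKO replicate 2, 3 without DKO replicate 3, 2 without WT replicate 1, 4 without WT replicate 2 and 3 without WT replicate 3. All genes called were 1887, and 450 to 715 in these 5 fits. Zfp239 was called in each of these 5 fits, while most of the smaller differences were not. The count was 15 without both DKO replicate 1 and Smarca1 KO replicate 1, where 17.6% of all genes were called. With effective-length offsets it was 6 of 85, namely Zfp239, Zfp950, Zfp9, Zfp422, Zfp467 and Zfp740, where 8% of all genes were called. The fit of the 2 compared groups alone called 18 members, where 22.1% of all genes were called.

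Zfp41 (ENSMUSG00000047003.15, chr15:75616679-75629827, plus strand) had the smallest p of those 11. It had 165.3, 149.8 and 144.5 CPM in DKO libraries, 170.3, 162.5 and 155.1 CPM in Smarca1 KO libraries and 187.4, 180.3 and 187.0 CPM in WT libraries. The WT libraries were above all others, and DKO and Smarca1 KO overlapped. Its log2 fold change was -0.27 in DKO against WT (SE 0.056, edgeR adjusted p = 0.0177), -0.087 in DKO against Smarca1 KO (edgeR adjusted p = 0.464) and -0.18 in Smarca1 KO against WT (edgeR adjusted p = 0.154). The 2 main transcripts of Zfp41 differed: ENSMUST00000054555 averaged 20.2 ± 1.64 TPM in DKO, 22.7 ± 2.17 TPM in Smarca1 KO and 27.2 ± 1.03 TPM in WT libraries, whereas ENSMUST00000161785 averaged 31.8 ± 1.21 TPM in DKO, 31 ± 1.57 TPM in Smarca1 KO and 32.4 ± 2.22 TPM in WT libraries (SD, n = 3 each). The division of reads between transcripts of a gene is an estimate and was not tested.

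Zfp740 (ENSMUSG00000046897.17, chr15:102203249-102215606, plus strand) had 231.1, 234.3 and 239.2 CPM in DKO libraries, 247.9, 256.2 and 234.5 CPM in Smarca1 KO libraries and 268.1, 268.5 and 263.5 CPM in WT libraries. WT was again above all others, with a log2 fold change of -0.18 in DKO against WT (SE 0.041, edgeR adjusted p = 0.0217) and -0.12 in Smarca1 KO against WT (edgeR adjusted p = 0.194). Zfp219 (chr14:52006077-52020733, minus strand) had 178.0, 169.7 and 172.9 CPM in DKO libraries, 179.6, 182.8 and 164.6 CPM in Smarca1 KO libraries and 196.7, 194.9 and 207.1 CPM in WT libraries. The WT values of Zfp219 lay above all others. Its log2 fold change was -0.20 in DKO against WT (SE 0.048, edgeR adjusted p = 0.0283) and -0.018 in DKO against Smarca1 KO (edgeR adjusted p = 0.899). The exons of Zfp740 overlap Csad on the opposite strand by 5.5% of their bases, those of Zfp219 overlap Arhgef40 by 3.9% and Tmem253 by 5.9%, and those of Zfp687 overlap Pi4kb by 4.3%, also on the opposite strand. Whether strand was used in counting is not given in the sources used here.

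Zfp746 (PARIS, chr6:48062395-48086593) encodes a KRAB protein that represses Ppargc1a and is removed through parkin. It had 46.8, 45.8 and 47.2 CPM in DKO libraries, 48.5, 48.9 and 50 CPM in Smarca1 KO libraries and 52.0, 51.6 and 53.3 CPM in WT libraries. The 3 groups of Zfp746 did not overlap, and its log2 fold change was -0.16 in DKO against WT (SE 0.039, edgeR adjusted p = 0.0277). Zfp467 (chr6:48427697-48445825), a regulator of bone and fat formation in mouse marrow cells, had 33.4, 34.1 and 35.8 CPM in DKO libraries, 37.2, 35.1 and 39.9 CPM in Smarca1 KO libraries and 43.8, 39.1 and 41.0 CPM in WT libraries. The DKO values of Zfp467 lay below all WT values and it fell by 0.26 on the log2 scale in DKO against WT (edgeR adjusted p = 0.0292). Zfp236 (chr18:82593593-82692883), with 31 finger matches, had 76.1, 74.6 and 76.7 CPM in DKO libraries, 77.6, 80.1 and 80.4 CPM in Smarca1 KO libraries and 87.8, 85.5 and 81.7 CPM in WT libraries, and fell by 0.17 on the log2 scale in DKO against WT (edgeR adjusted p = 0.0287).

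Zfp687 (chr3:95006590-95015448), a subunit of the Z3 chromatin complex in human cells, had 65.1, 61.2 and 59.1 CPM in DKO libraries, 64.2, 62.4 and 60.1 CPM in Smarca1 KO libraries and 70.3, 68.7 and 71.5 CPM in WT libraries. DKO and Smarca1 KO overlapped fully here, at -0.011 in DKO against Smarca1 KO (edgeR adjusted p = 0.939) and -0.18 in DKO against WT (edgeR adjusted p = 0.0367). The remaining members called against WT were Zfp422 (-0.25, adjusted p = 0.0386), Zfp867 (-0.28, adjusted p = 0.042), Zfp24 (-0.20, adjusted p = 0.0426) and Zfp516 (-0.26, adjusted p = 0.0448). Zfp24 (Zfp191) is needed for myelination by oligodendrocytes, and Zfp516 drives the brown fat gene programme in mice. Zfp422 shares 29.2% of its 31-base words with other genes and is uncertain to that extent. The members not called by edgeR with the smallest p in DKO against WT were Zfp692 (0.19, adjusted p = 0.0559), Zfp395 (-0.21, adjusted p = 0.0591) and Zfp513 (-0.14, adjusted p = 0.0845). DESeq2 called Zfp692 higher (DESeq2 adjusted p = 0.0496) and Zfp395 lower (DESeq2 adjusted p = 0.0333).

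**Figure D3:**
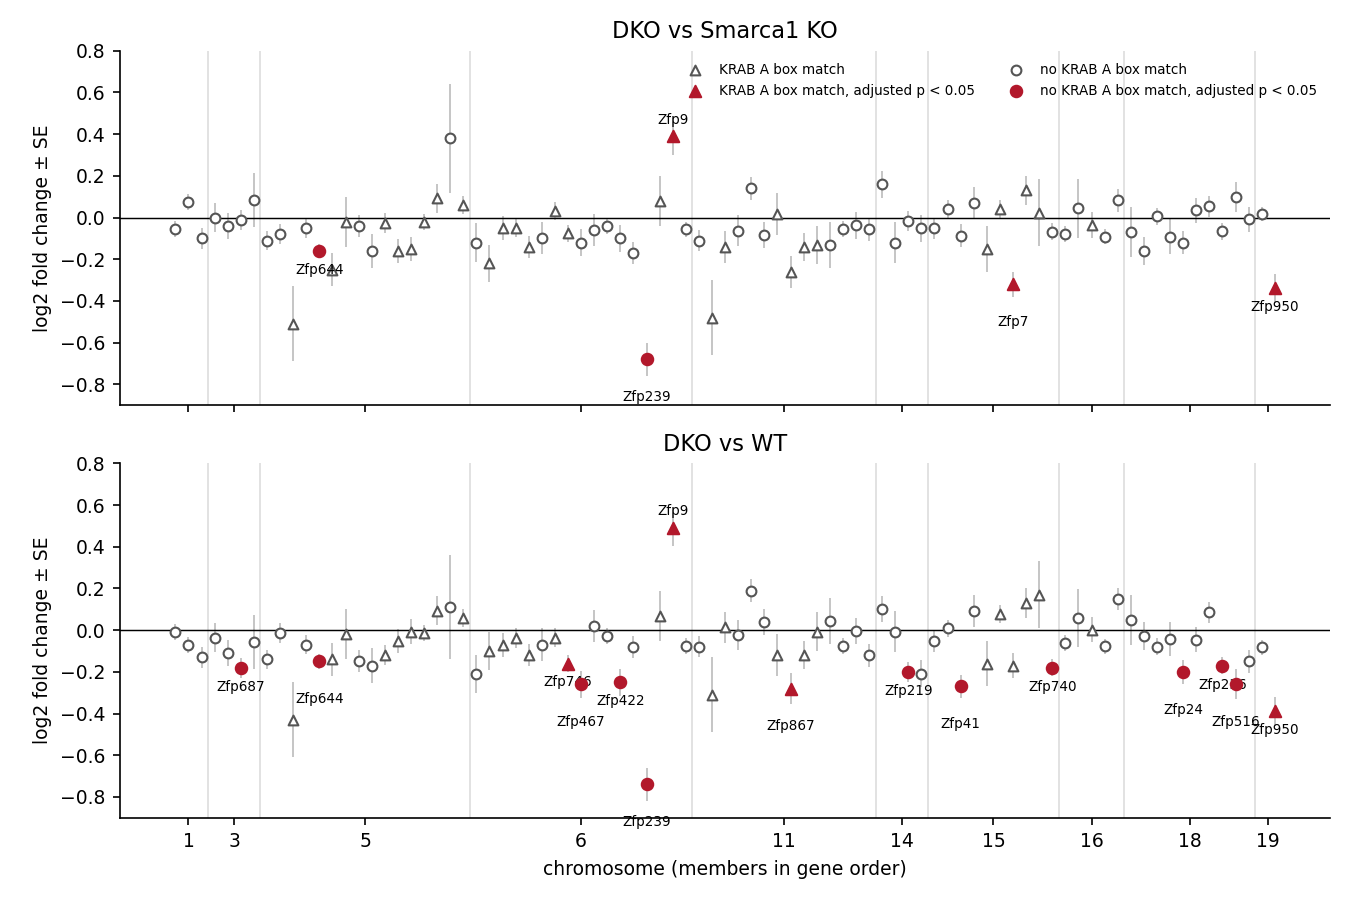
Log2 fold change ± SE of the 85 members tested, in gene order along the chromosomes, for DKO against Smarca1 KO (top) and DKO against WT (bottom), with triangles for KRAB members and red for an adjusted p under 0.05. Most values sit between 0 and -0.2, Zfp239 stands lowest at -0.68 and -0.74, and Zfp9 stands highest of the called members at 0.39 and 0.49.

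In Smarca1 KO against WT, 0 of the 85 members were called by edgeR's quasi-likelihood test, beside 0.336% of all genes tested (0.139% called higher and 0.197% called lower). The median log2 fold change was -0.001, beside 0.010 over all genes tested. At an unadjusted p under 0.05 there were 13 lower and 2 higher members, and over all genes tested 1506 were lower and 1472 higher at that p. DESeq2 called 4 members, all lower, beside 5.16% of all genes with a DESeq2 adjusted p (1.83% called higher and 3.33% called lower): Zfp516, Zfp219, Zfp687 and Zfp142, with DESeq2 adjusted p of 0.000998, 0.0219, 0.0487 and 0.0497 in that order. Without both DKO replicate 1 and Smarca1 KO replicate 1, edgeR called 2, Zfp41 and Zfp516, both lower, beside 3.83% of all genes. Zfp516 (chr18:82910663-83005314, plus strand) had 94.1, 88.3 and 83.6 CPM in DKO libraries, 86.6, 88.1 and 73.2 CPM in Smarca1 KO libraries and 107.7, 102.0 and 109.3 CPM in WT libraries. Its WT values lay above all others, and Smarca1 KO replicate 3 was the lowest library. The log2 fold change of Zfp516 was -0.36 in Smarca1 KO against WT (SE 0.073, edgeR adjusted p = 0.0789), -0.26 in DKO against WT and 0.10 in DKO against Smarca1 KO (edgeR adjusted p = 0.518). Zfp142, a gene with 37 finger matches, had 55.8, 58.8 and 57.4 CPM in DKO libraries, 53.4, 55.3 and 54.5 CPM in Smarca1 KO libraries and 61.0, 60.0 and 59.5 CPM in WT libraries (-0.15 in Smarca1 KO against WT, edgeR adjusted p = 0.140). Zfp219, at -0.18 in Smarca1 KO against WT (edgeR adjusted p = 0.136), was the third uncalled member with a small p there.

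The 16 members called in any comparison thus had differing values over the 3. Zfp239, Zfp950, Zfp644 and Zfp867 had values of -0.15 to -0.74 in both DKO comparisons and between -0.07 and 0.02 in Smarca1 KO against WT. Zfp219 and Zfp687 had values near 0 in DKO against Smarca1 KO and -0.17 to -0.20 in both comparisons with WT, and Zfp516 had -0.36 in Smarca1 KO against WT and -0.26 in DKO against WT. Since the 3 comparisons share libraries, these values are not independent of each other.

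**Figure D4:**
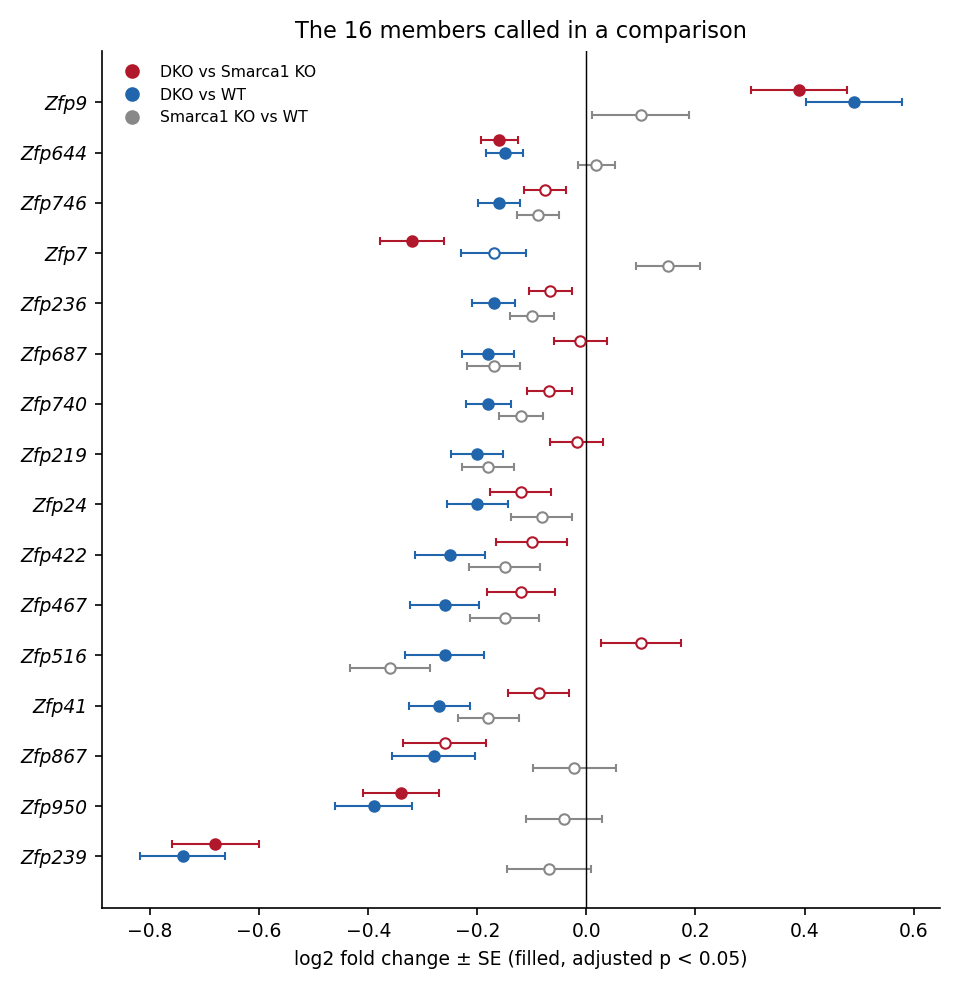
Log2 fold change ± SE of the 16 members called in at least 1 comparison, for DKO against Smarca1 KO (red), DKO against WT (blue) and Smarca1 KO against WT (grey), with filled points for an adjusted p under 0.05. For Zfp239 the red and blue points lie together at -0.68 and -0.74 with the grey near 0, while for Zfp516 the grey and blue points lie together at -0.36 and -0.26.

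By chromosome, the called members were spread out. Chromosome 6 had 17 members tested, with 2 called in DKO against Smarca1 KO and 5 in DKO against WT. Chromosome 5 had 16 tested, with Zfp644 alone called in both. Chromosome 11 had 14 tested, with 0 called by edgeR in DKO against Smarca1 KO (3 at an unadjusted p under 0.05 and 0 by DESeq2) and Zfp867 alone in DKO against WT. Chromosome 18 had 10 tested, with 0 called by edgeR in DKO against Smarca1 KO (1 at an unadjusted p under 0.05 and 0 by DESeq2) and 3 lower in DKO against WT. The median log2 fold change in DKO against Smarca1 KO lay between -0.095 on chromosome 11 and -0.006 on chromosome 3 for the chromosomes with at least 3 members tested.

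Zfp genes often stand in clusters. With neighbours defined as members whose starts lie within 250 kb, 38 of the tested members fell into 14 runs. Each of the 6 runs with a called member held only 1, and its neighbours were not called. Zfp637 starts 20.9 kb from Zfp239 and had a log2 fold change of -0.17 in DKO against Smarca1 KO (adjusted p = 0.115) and -0.082 in DKO against WT (adjusted p = 0.323), beside -0.68 and -0.74 for Zfp239. Zfp248 starts 34.6 kb from Zfp9 and had 0.08 and 0.067 in the same comparisons (adjusted p = 0.791 and 0.744), beside 0.39 and 0.49 for Zfp9. Zfp7 lies between Zfp251 and Zfp647 in a run of 58.8 kb, and in DKO against Smarca1 KO the values were 0.043 for Zfp251, -0.32 for Zfp7 and 0.13 for Zfp647. The longest run holds 7 members over 243.1 kb of chromosome 6, from Zfp786 through Zfp398, Zfp282, Zfp212, Zfp956 and Zfp777 to Zfp746. Its values in DKO against WT ran from -0.16 to -0.036, and Zfp746 was the 1 member of the run that was called. In the other runs with a called member, Zfp775 beside Zfp467 had 0.020 in DKO against WT, and Zfp397 and Zfp35 beside Zfp24 had -0.080 and -0.041.

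Promoter sequence gave a further view of the called members. RefSeq (build GRCm38.p6) windows of 300 bases, from 250 before to 50 after a start, were found for 66 of the 91 members. The window taken was the one whose start is nearest to that of the main transcript. The nearest start could be far away, at 69249 bases for Zfp638 and 36394 bases for Zfp652. CG dinucleotides, the sites of DNA methylation, were counted on 1 strand, which gives the same number on both. The median was 18 CG in the members' windows and 7 in all 32851 RefSeq promoter windows, 94.6% of which hold at least 1 CG. At most 10 CG were found in 22.7% of the members' windows and in 58.6% of all windows. All windows include several for some genes, and genes not tested here, whereas each member enters with 1 window. Among tested genes with a window within 500 bases of the main transcript's start, the shares lay closer. There, 9 of 54 members and 1961 of all 10292 genes had at most 10 CG. Zfp7 and Zfp9 were not among the members matched. The windows of Zfp239, Zfp950 and Zfp644, the members lower in both DKO comparisons, and of Zfp740, called against WT only and the richest in CG, are shown 5′ to 3′ on the gene's strand with each CG in capitals. The window of Zfp239 (chr6:117862631-117862930, plus strand) has 6 CG, that of Zfp950 (chr19:61140791-61141090, minus strand) has 9, that of Zfp644 (chr5:106696781-106697080, minus strand) has 10 and that of Zfp740 (chr15:102203750-102204049, plus strand) has 54.
Zfp239: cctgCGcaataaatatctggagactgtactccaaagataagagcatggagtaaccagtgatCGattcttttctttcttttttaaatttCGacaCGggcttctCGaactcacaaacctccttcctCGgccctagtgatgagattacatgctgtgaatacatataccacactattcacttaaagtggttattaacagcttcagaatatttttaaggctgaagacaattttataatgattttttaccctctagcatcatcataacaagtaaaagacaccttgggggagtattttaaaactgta
Zfp950: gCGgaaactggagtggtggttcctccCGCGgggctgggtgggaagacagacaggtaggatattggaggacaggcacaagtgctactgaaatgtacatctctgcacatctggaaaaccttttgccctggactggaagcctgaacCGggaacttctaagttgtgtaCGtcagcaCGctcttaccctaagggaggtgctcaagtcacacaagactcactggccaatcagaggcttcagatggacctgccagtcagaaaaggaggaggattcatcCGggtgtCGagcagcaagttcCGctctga
Zfp644: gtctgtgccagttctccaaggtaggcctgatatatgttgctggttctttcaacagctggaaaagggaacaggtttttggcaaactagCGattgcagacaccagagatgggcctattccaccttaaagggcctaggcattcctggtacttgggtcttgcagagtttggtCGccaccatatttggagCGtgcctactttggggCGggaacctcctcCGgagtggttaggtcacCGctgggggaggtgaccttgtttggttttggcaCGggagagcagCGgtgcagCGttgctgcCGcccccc
Zfp740: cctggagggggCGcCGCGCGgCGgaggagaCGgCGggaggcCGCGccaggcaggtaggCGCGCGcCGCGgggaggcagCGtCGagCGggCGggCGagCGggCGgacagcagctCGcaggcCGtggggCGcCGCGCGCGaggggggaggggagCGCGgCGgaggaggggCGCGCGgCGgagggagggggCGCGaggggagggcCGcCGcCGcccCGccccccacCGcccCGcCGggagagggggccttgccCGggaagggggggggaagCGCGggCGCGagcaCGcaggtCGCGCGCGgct
These windows show a sparse and a dense case. Over the 66 members' windows the number of CG ran from 2 in Zfp735, which had 0 counts, to 54 in Zfp740. Zfp239 has 2 RefSeq windows, neither with more than 6 CG. Zfp644 also has 2, and its other window has 47, so its place depends on the start chosen.

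Among the 54 tested members with a window within 500 bases of the main transcript's start, 9 had at most 10 CG, a limit chosen after the values were seen. Their median log2 fold change in DKO against Smarca1 KO was -0.259, with 3 called lower and 0 higher, beside -0.055 for the 45 with more CG. The 3 were the only called members with such a window in that comparison. Over all genes tested with a window, the median was -0.016 for 1961 genes with at most 10 CG, of which 86 were called lower and 29 higher, and 0.008 for 8331 genes with more, of which 183 were called lower and 159 higher. In DKO against WT the medians were -0.281 for the 9 members, 4 of them called lower, and -0.063 for the other 45, of which 4 were also called lower. Over all genes the sparse windows had the higher median in that comparison, at 0.043 (135 called lower and 108 higher), beside 0.004 for the windows with more CG (561 called lower and 484 higher). Zfp9, Zfp41, Zfp467, Zfp219, Zfp24, Zfp236 and Zfp516, also called against WT, had no window within 500 bases and do not enter. No tested member on chromosome 18 had one. Spearman's rho between CG number and log2 fold change across the 54 members was 0.29 in DKO against Smarca1 KO, 0.05 in DKO against WT and -0.29 in Smarca1 KO against WT, beside 0.07, -0.03 and -0.12 across the 10292 genes with a window. These are descriptions across genes, which share libraries and are not independent replicates. CG number also went with level, at a rho of 0.23 with TPM across the members and 0.34 across all those genes. Of the 9 members with at most 10 CG, all except Zfp239 and Zfp644 had a KRAB match. The parts of level and of KRAB in the relation were not tested. With the richest window of each gene in place of the nearest, rho across the members was 0.17 in DKO against Smarca1 KO, and 8 members had at most 10 CG, with a median of -0.301. Of the 3 called members, 2 were then among those 8 and Zfp644, with 47 CG, was not.

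**Figure D5:**
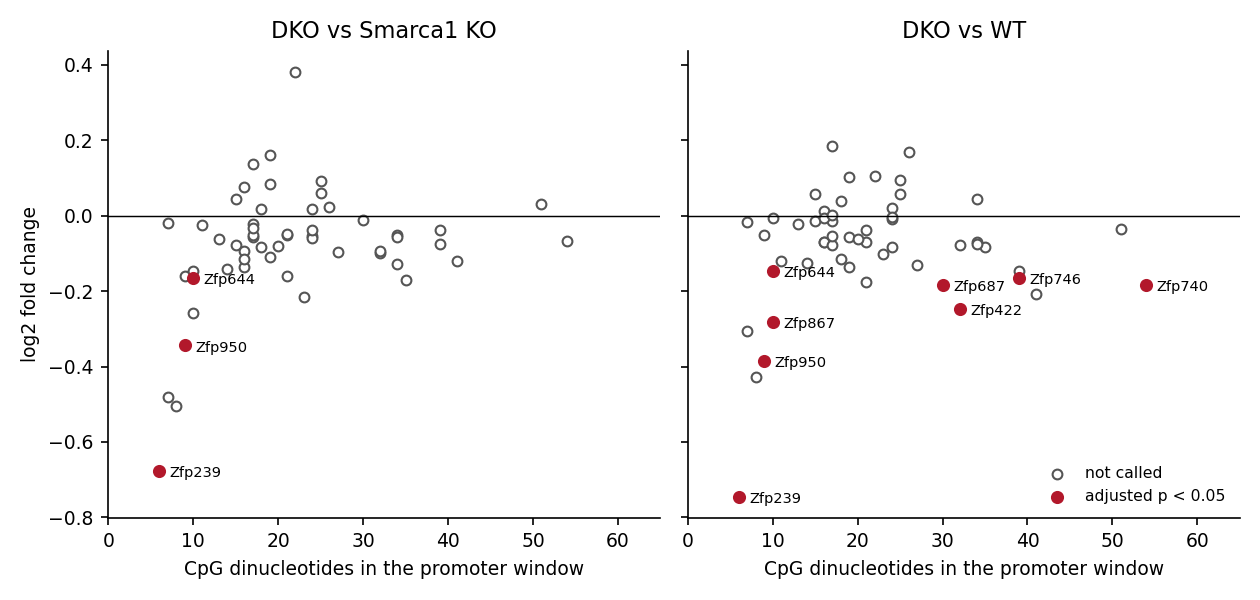
Log2 fold change against the number of CG dinucleotides in the 300-base promoter window for the 54 tested members with a window near the main transcript's start, in DKO against Smarca1 KO (left) and DKO against WT (right), with red for an adjusted p under 0.05. On the left the 3 called members all have at most 10 CG in this window (Zfp644 has 47 in its other one), and on the right called members are found from 6 CG (Zfp239) to 54 CG (Zfp740). Called members without such a window, among them Zfp9, are not drawn.

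The partners of KRAB proteins were followed through a list of 29 genes, all tested. In DKO against Smarca1 KO edgeR called 0 of the 29 (6 at an unadjusted p under 0.05, and 1 by DESeq2) and their median log2 fold change was -0.006. Over all genes edgeR called 4.39% there and DESeq2 6.96%. In DKO against WT 8 were lower and 0 higher, with a median of -0.131, where 6.35% of all genes tested were called lower. With the Y-linked covariate edgeR called 0 of the 29 there (1 at an unadjusted p under 0.05). In Smarca1 KO against WT edgeR called 0 (9 at an unadjusted p under 0.05, all lower, and 6 by DESeq2), with a median of -0.068. Over all genes edgeR called 0.336% in that comparison and DESeq2 5.16%. The list was chosen with earlier results of these data known. Trim28, which binds the KRAB box, had 583.5, 591.4 and 594.2 CPM in DKO libraries, 606.7, 616.4 and 553.8 CPM in Smarca1 KO libraries and 678.1, 685.4 and 713.4 CPM in WT libraries. The WT libraries were highest, DKO and Smarca1 KO overlapped, and the log2 fold change was -0.23 in DKO against WT (edgeR adjusted p = 0.0149) and also -0.23 in Smarca1 KO against WT (edgeR adjusted p = 0.0801). The other 7 lower in DKO against WT were the remodeller Chd4 (-0.31), the DNA methyltransferase Dnmt3a (-0.19), Setdb1 (-0.14), its cofactor Atf7ip (-0.20), the remodellers Smarcad1 (-0.15) and Atrx (-0.17), and the histone chaperone Daxx (-0.15), with adjusted p between 0.00211 and 0.0449.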

How the data were processed

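The authors deposited 1 Salmon table per library, with estimated counts and TPM per transcript, per the file headers. Salmon 1.4.0, DESeq2 and mm10 are named in the submitters' processing notes. Not given in the sources used here are the transcript index and the library type. Each table held 116546 transcripts, of which 115977 matched GENCODE M21 without version numbers. The 569 others held 0.104% to 0.116% of reads. Estimated counts were summed to 35498 genes and rounded to whole numbers.

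All 9 libraries (27466046 to 46007527 counts) entered 1 fit of group means in edgeR 4.0.16 (limma 3.58.1, R 4.3.3), with TMM scaling (factors 0.991 to 1.02) and filterByExpr, which kept 15773 genes. The quasi-likelihood F test was used, with Benjamini-Hochberg adjustment over those genes and a threshold of 0.05. The SE is the log2 fold change divided by the square root of F. The common biological coefficient of variation was 10.2%. CPM are TMM-scaled. TPM are sums of the deposited TPM over a gene's transcripts. The floor of 3 counts covers counting error only, whereas SE and SD also include the spread between libraries. The fit was tested on simulated data. No pair of libraries of a group agreed within sampling noise (chi-square per gene 3.69 to 24.2). The alternatives were DESeq2 1.42.0, RLE factors, no filter, 2 groups only, effective-length offsets, a replicate block, a Y-linked covariate, leaving out members with over 20% shared sequence, and leaving out libraries.

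Shared sequence is the share of a gene's 31-base words found in other genes. KRAB A boxes were found with an HMMER 3.4 profile (E under 1e-05), aligned with MAFFT 7.526. Promoters are from RefSeq, GRCm38.p6.

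The members, lists and tests were chosen with earlier results of these data known. Named were all called members, the 8 with the highest TPM, the 3 uncalled members with the smallest p per comparison, the neighbours of called members within 250 kb, Smarca5, Smarca1 and called genes of the corepressor list. Other exceptions are marked in the text. A further tissue marker is not reported here.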

Additional observations from a re-analysis of the deposited data

How the results depend on the processing

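The number of members called in DKO against Smarca1 KO was 5. It was 1 with the 2 compared groups only, 0 with the Y-linked covariate (9 at an unadjusted p under 0.05 by edgeR), 1 without both Smarca1 KO replicate 1 and DKO replicate 1, and 1 to 5 over the fits without 1 library. In DKO against WT the number was 15. It was 6 with effective-length offsets, beside 8% of all genes, and 18 with the 2 compared groups only, beside 22.1%. It was 0 with the Y-linked covariate (10 at an unadjusted p under 0.05) and 2 to 18 over the fits without 1 library. In Smarca1 KO against WT it was 0, with 4 by DESeq2, 2 without both Smarca1 KO replicate 1 and DKO replicate 1, and 0 in each fit without 1 library. The median log2 fold change of the members was -0.057 in DKO against Smarca1 KO (-0.074 to -0.049 without 1 library), -0.069 in DKO against WT (-0.081 with the Y-linked covariate) and -0.001 in Smarca1 KO against WT (-0.018 with effective-length offsets). The causes of these moves were not tested. The Y-linked level differed between groups (R-squared by group 0.809), so that covariate and genotype cannot be told apart in that fit. With the replicate number as a block, 2 members were called in DKO against Smarca1 KO, Zfp239 and Zfp7, 13 in DKO against WT and 0 in Smarca1 KO against WT. Same-numbered DKO and Smarca1 KO libraries deviated together with correlations of 0.35, -0.035 and 0.106, and the numbers were not taken to pair the samples. Over 1989 values of named genes under an alternative, 1833 kept their side of the threshold. Another 136 lost the call, 20 gained it and 0 called values turned sign. Uncalled values near 0 could turn sign. For Zfp687 in DKO against Smarca1 KO, -0.011 became 0.016 with the Y-linked covariate. Zfp239 kept its call in 16 of 17 alternatives in each DKO comparison and lost it with the Y-linked covariate (adjusted p = 0.431 in DKO against Smarca1 KO and 0.461 in DKO against WT). With 3 libraries a group, differences as small as most of those above were at the edge of what was called, and a missed threshold does not show equal levels.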
